A study of Mus musculus with 16 samples.

Results

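Macrophage and lymphocyte marker genes were followed in pancreatic islet preparations of mice carrying a beta-cell targeted mutation of Insm1, which encodes a transcription factor needed by endocrine cells. The set held 31 named genes, and all 31 had a probe set on the array that named 1 gene, among 18193 genes tested. Each gene was represented by its brightest probe set over the 16 arrays, chosen without regard to group. The 8 mutant animals (RIPcreER; Insm1flox/lacZ, titled Co-Insm1 mutant islets) were compared with 8 controls (RIPcreER; Insm1flox/+), 1 array each. RIPcreER is a tamoxifen-inducible recombinase driven by the rat insulin promoter, so its target is the beta cell and not the immune cell. Both groups carried it. Tamoxifen (25 mg, released over 21 days) was given to both when the animals were 4 to 5 weeks old, and RNA came from islets of animals 8 to 12 weeks old. The floxed allele can therefore be recombined in control beta cells too, which keep their wild-type allele, and only the mutants carry the lacZ allele. The strains CBA/J, C57BL/6 and 129/ola contributed to the background, and the controls were matched by litter.

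Islets contain resident macrophages, which take up debris and secretory material from beta cells and show peptides to T cells on MHC class II molecules. Normal islets hold few T and B lymphocytes. Ptprc (CD45) is on the surface of all white blood cells, C1q is the recognition molecule of the classical complement pathway and is made mainly by macrophages, and Cd79a, Cd79b and Ms4a1 (CD20) belong to B cells. In whole islet RNA, such markers report how much immune-cell RNA a preparation holds together with how strongly each cell expresses the gene. More cells of a type and more RNA per cell cannot be told apart in these bulk samples.

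Values are deposited log2 signals of probe sets, and a difference of 1 is a doubling of signal. Array medians lay between 6.29 and 6.35, and differences are mutant minus control. Calls required an adjusted p under 0.05 (limma, Benjamini-Hochberg over all 18193 genes). The islet hormone and endocrine markers averaged 14.08 to 14.32 on control arrays and 14.07 to 14.26 on mutant arrays, near the top of the scale at 15.39. Of the 8 measured, 1 was called, as lower. This was Pdx1, at 10.91 ± 0.09 (SD, n = 8) on control and 10.35 ± 0.16 on mutant arrays (limma, adjusted p = 2.90e-05). Insm1 averaged 11.26 ± 0.23 on control and 11.02 ± 0.22 on mutant arrays (SD, n = 8) and was not called (limma, adjusted p = 0.182). Where its probes lie relative to the deleted part is not stated, and its signal does not check the labels. Array values carry no read depth, and precision rests on how many arrays there are.

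Of the 31 members, 1 differed between mutant and control islets. C1qa was called higher in the mutant, 0 members were called lower, and 30 did not pass the test. Over all genes, 8.76% were called, 4.10% higher and 4.66% lower. An unadjusted p under 0.05 was reached by 3 members (C1qa, C1qb and Tyrobp), against 21.4% of all genes. With the replicate number as a block this count was 11 of the 31, including all 4 MHC class II members, against 29.7% of all genes. The median difference of the members was 0.39, or 0.20 without mutant replicate 1, while that of all genes was −0.01. Differences above 0 were found for 28 members, against 48.1% of all genes, and the 31 ranged from −0.14 for Cd79a to 1.25 for Ms4a1. With the replicate number as a block, again only C1qa of the 31 was called, as higher, against 17.6% of all genes (7.88% higher and 9.71% lower). The groups overlapped for all 31 members, and 2.29% of all genes had groups that did not.

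**Figure D1:**
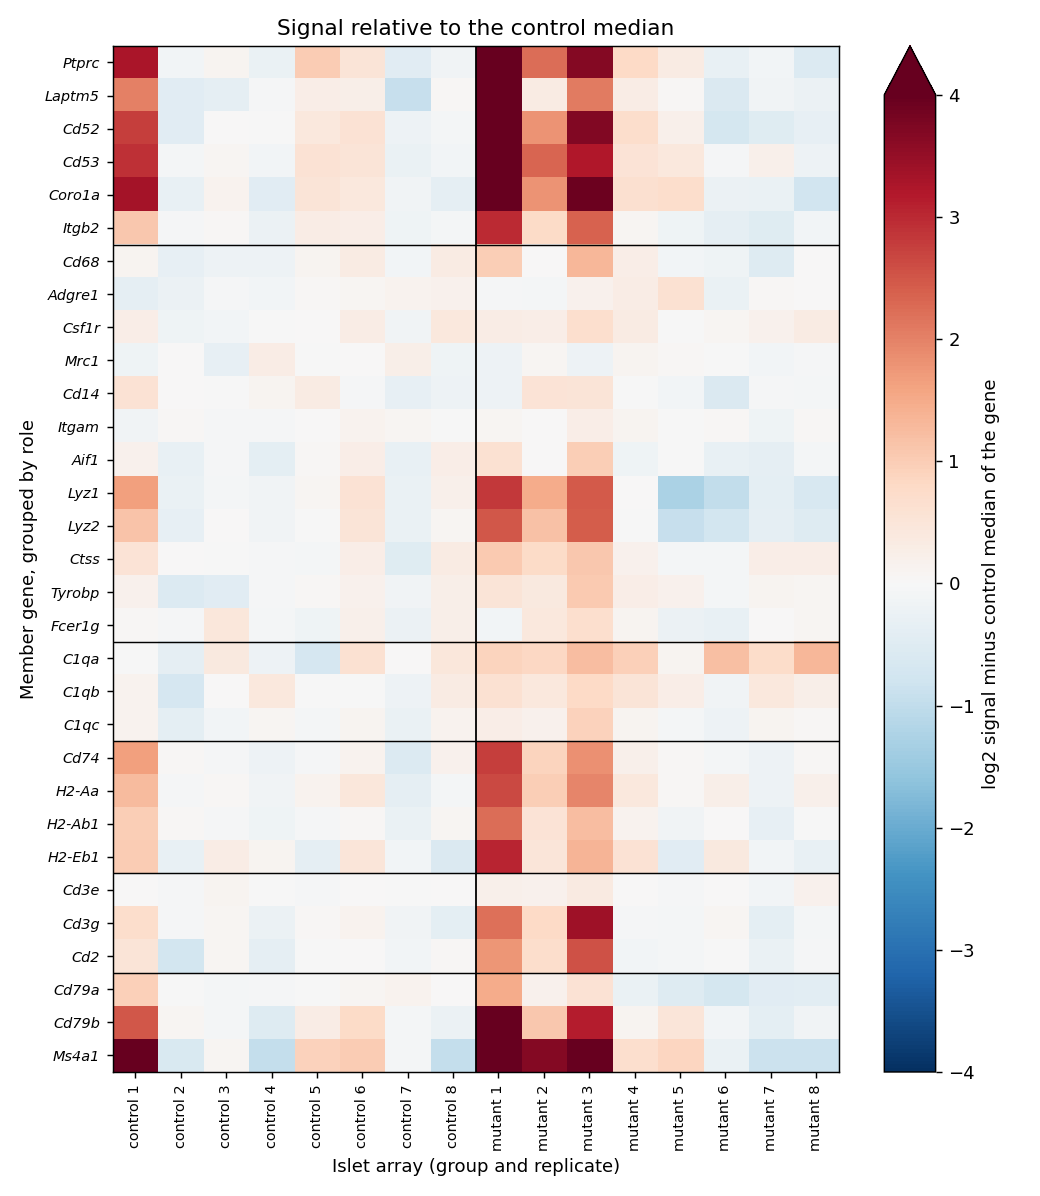
Signal of the 31 members (vertical axis, grouped by role) on the 16 arrays (horizontal axis), as log2 signal minus the median of the 8 control arrays; colours saturate at 4 in either direction. Mutant replicates 1 and 3 and control replicate 1 are dark for the pan-leukocyte, MHC class II and B-cell members, whereas C1qa is raised on mutant arrays that are pale for the rest.

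The members differed in how much they varied from animal to animal. The pooled SD within groups was at least 1 on the log2 scale for 9 of the 31 (Ptprc, Laptm5, Cd52, Cd53, Coro1a, Lyz1, Lyz2, Cd79b and Ms4a1), and its median was 0.67 over the members and 0.16 over all genes. The highest of the 16 values was on mutant replicate 1 for 15 members and on mutant replicate 3 for 12. For 14 members the 3 highest arrays were mutant replicates 1 and 3 and control replicate 1. Control replicate 1 was the highest control for 20 of the 31. The SD was larger in mutants than in controls for 27 members, against 10346 of all 18193 genes. It was larger for 11 of 31 when replicates 1 to 3 of both groups were left out, where all genes were not counted. Without those arrays the median SD of the members was 0.25, against 0.14 over all genes. The mean of all 31 members ran from 7.01 to 8.33 on control arrays and from 7.05 to 9.29 on mutant arrays. In replicates 4 to 8 it ran from 7.03 to 7.52 and from 7.05 to 7.48, and the ranges of the groups overlapped there.

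Ptprc, which encodes the CD45 phosphatase of white blood cells, was measured in controls at 6.92 at the lowest, 7.37 at the median and 10.63 at the highest. In mutants it was 6.83, 7.94 and 12.27. Mutant replicates 1, 2 and 3 (12.27, 9.60 and 11.05) and control replicate 1 (10.63) were high, and the remaining 12 arrays of both groups lay together between 6.83 and 8.38. The difference was 0.88 ± 0.75 (SE, n = 8 per group; limma, adjusted p = 0.569). Coro1a, an actin regulator of white blood cells, spread from 6.03 to 9.80 in controls and from 5.73 to 11.62 in mutants. Its difference was 0.97 ± 0.79 (limma, adjusted p = 0.540). Cd52 and Cd53, 2 leukocyte surface proteins, differed by 0.80 ± 0.72 and 0.94 ± 0.66, and Laptm5, a lysosomal membrane protein of blood cells, by 0.63 ± 0.57 (limma, adjusted p = 0.590, 0.469 and 0.595). Itgb2, the shared beta chain of leukocyte integrins, differed by 0.49 ± 0.44 (limma, adjusted p = 0.595). All 6 had their 3 highest values on these arrays: mutant replicates 1 and 3, and the first control. Without replicates 1 to 3 their differences lay between −0.27 (Cd52) and 0.06 (Cd53).

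**Figure D2:**
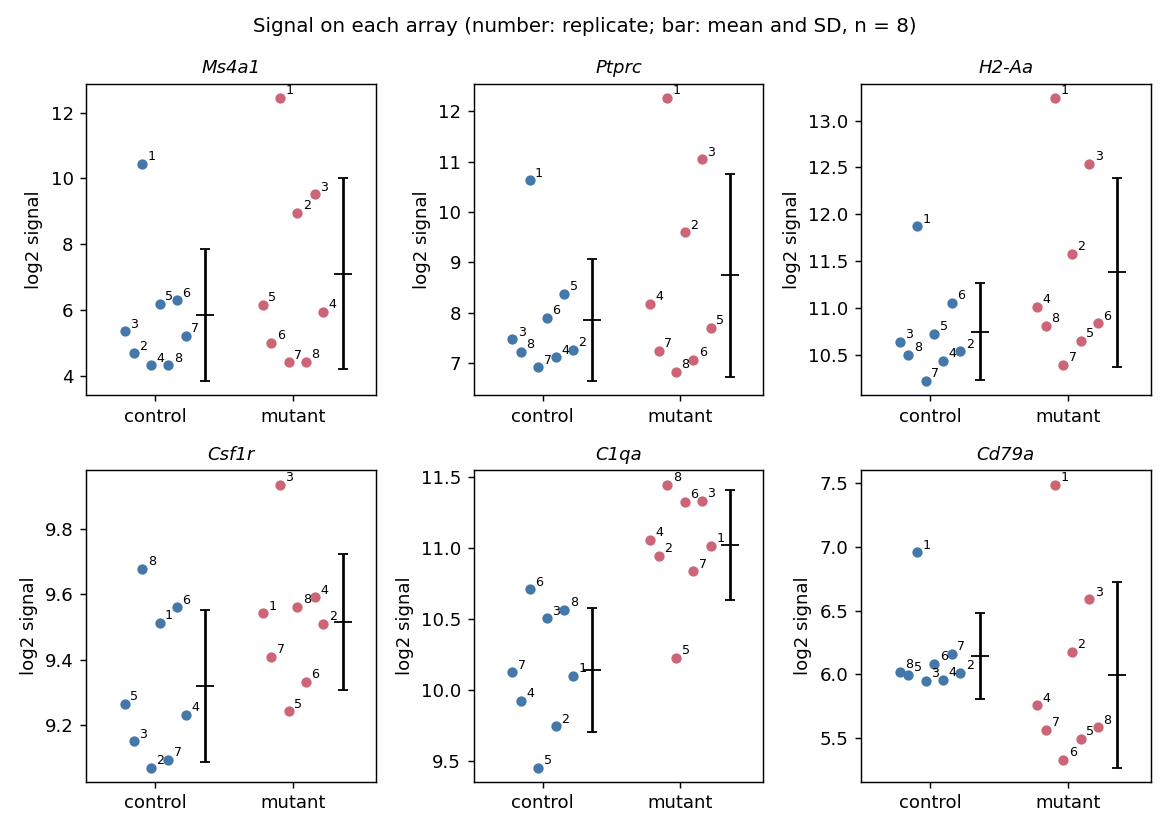
Log2 signal (vertical axis) of 6 members on each control and mutant array; the number beside a point is the replicate, and the bar gives the mean and SD of 8 arrays. For Ms4a1, Ptprc and H2-Aa 4 arrays stand above the rest, for C1qa all but 1 of the mutant arrays lie above the highest control, and for Cd79a mutant replicates 4 to 8 lie below every control.

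Among the macrophage genes, the receptor and adaptor genes varied less than the white-cell genes. Csf1r, the receptor for the growth factors that sustain macrophages, read 9.07, 9.25 and 9.68 (lowest, median, highest) in controls and 9.24, 9.53 and 9.94 in mutants. The groups overlapped over most of this range, and the difference was 0.19 ± 0.10 (limma, adjusted p = 0.307). Ctss, a lysosomal protease that trims the class II invariant chain, ran from 9.42 to 10.45 in controls and from 9.82 to 11.01 in mutants. Its difference was 0.37 ± 0.18 (limma, adjusted p = 0.261). Tyrobp, a signalling adaptor of myeloid receptors, differed by 0.38 ± 0.15 (limma, adjusted p = 0.139), and mutant replicate 3 (8.55) was its highest array. Fcer1g, the signalling chain of Fc receptors, read 7.76 ± 0.24 (SD, n = 8) and 7.79 ± 0.32.

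The remaining surface markers of macrophages did not separate the groups either. Adgre1, a surface receptor used to stain mouse macrophages, read 6.45 ± 0.19 (SD) in controls and 6.59 ± 0.27 in mutants, and Cd14, a coreceptor for bacterial lipopolysaccharide, 7.46 ± 0.29 and 7.41 ± 0.37. Aif1, a calcium-binding protein of macrophages, and the lysosomal glycoprotein gene Cd68 were highest on mutant replicate 3 (7.36 and 7.33) and differed by 0.12 ± 0.18 and 0.22 ± 0.22 (SE). The integrin gene Itgam (CD11b) and the mannose receptor gene Mrc1 lay between 3.49 and 4.27 on all 16 arrays, well below the lowest array median of 6.29. These 2 probe sets, both of them the only ones of their gene, showed no array with raised signal. In all, 8 members averaged below 6.29 (Itgb2, Cd68, Mrc1, Itgam, Cd3g, Cd2, Cd79a and Cd79b), where background compresses differences.

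The lysozyme genes Lyz1 and Lyz2, neighbouring copies that encode bacteria-degrading enzymes, had the largest spread of the macrophage members. Lyz1 read 9.42, 9.68 and 11.31 (lowest, median, highest) in controls and 8.41, 9.49 and 12.50 in mutants, with a difference of 0.22 ± 0.55 (SE; limma, adjusted p = 0.874). Mutant replicates 1 and 3 (12.50 and 12.13), control replicate 1 (11.31) and mutant replicate 2 (11.15) were high, and mutant replicate 5 (8.41) was lowest. The name of the Lyz1 probe set marks it as open to cross-hybridisation, and the signals of the 2 copies may not be separate. Another Lyz1 probe set, whose name lacks this mark, did not share the spread. Its means were 4.85 for both groups, below the lowest array median, with SDs of 0.20 (control) and 0.24 (mutant). Which of the 2 copies gave the spread and the differences reported for Lyz1 was not tested. Without replicates 1 to 3 the differences turned to −0.74 ± 0.23 for Lyz1 and −0.54 ± 0.18 for Lyz2, and neither was called (limma, adjusted p = 0.0995 and 0.127). When each further array was left out, that of Lyz1 was called in 1 of 10 fits (limma, adjusted p up to 0.202). That fit lacked mutant replicate 4 (−0.91; limma, adjusted p = 0.0403).

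C1q is assembled from 3 chains whose genes lie beside each other on chromosome 4 in the RefSeq annotation of GRCm38.p6. C1qa read 9.46, 10.11 and 10.71 (lowest, median, highest) in controls and 10.23, 11.04 and 11.45 in mutants. All mutant arrays but replicate 5 (10.23) lay above the highest control, replicate 6 (10.71). Its mean rose from 10.14 ± 0.43 (SD, n = 8) to 11.03 ± 0.39, a difference of 0.88 ± 0.19 (SE) or 1.84-fold (limma, adjusted p = 0.00598, and 1.07e-05 with the replicate block). C1qa was higher in the mutant in 8 of 8 same-numbered pairs, by 0.61 to 1.20, and 5.79% of all genes were (7.21% were lower in all 8). The call held when each array was left out in turn (limma, adjusted p from 0.00134 to 0.0139). Without replicates 1 to 3 the difference was 0.82 ± 0.27 and was not called (limma, adjusted p = 0.114). Nor was it called there after quantile normalisation or median centring (limma, adjusted p = 0.110 and 0.118). It was called there with the block (limma, adjusted p = 0.000408, where 4.8% of all genes were called higher). Leaving out each array there gave a call in 1 of 10 fits (limma, adjusted p up to 0.230). That fit lacked mutant replicate 5, the lowest mutant array (limma, adjusted p = 0.0472).

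The other chains moved less. C1qb averaged 7.72 ± 0.34 (SD) on control and 8.11 ± 0.29 on mutant arrays and differed by 0.39 ± 0.15 (SE; limma, adjusted p = 0.117), and was called when mutant replicate 6 was left out (limma, adjusted p = 0.0451). All 3 C1qb probe sets were higher in the mutant, by 0.22 to 0.39, in 6 of 8 pairs each. C1qc read 7.05 ± 0.20 and 7.26 ± 0.34, a difference of 0.21 ± 0.13 (limma, adjusted p = 0.379), with mutant replicate 3 (8.01) apart from the rest. Whether C1qa differed from its partners was tested on the difference of log2 signals within each array, a test chosen after the values were seen. C1qa was picked for it as the only member called, which by itself favours a small p. The adjustment over 2 tests does not allow for that choice. C1qb and C1qc were also dimmer than C1qa, and whether background compressed their differences was not tested. C1qa minus C1qc was 3.09 ± 0.39 (SD) in controls and 3.76 ± 0.43 in mutants (higher by 0.67, exact permutation test over 12870 splits, two-sided p = 0.00466, adjusted over 2 tests 0.00932). C1qa minus C1qb was 2.42 ± 0.46 and 2.91 ± 0.48 (higher by 0.49, exact permutation p = 0.0587, adjusted 0.0587). With the replicate numbers as pairs, C1qa minus C1qb was higher in the mutant in 8 of 8 pairs and C1qa minus C1qc in 7 of 8 (exact permutation test over 256 sign changes, two-sided p = 0.00781 and 0.0156, both 0.0156 adjusted over the 2 tests). The value 0.00781 is the smallest that 8 pairs can give. The difference between C1qa and C1qb thus passed the test only with the pairing.

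RefSeq promoters of 300 bases, 250 before to 50 after the start site on GRCm38.p6, were at hand for 19 of the 31 members. Those of C1qb and C1qc are shown because these chains are co-expressed partners of C1qa. Capitals mark GAGGAA or its reverse complement, the core of sites of the PU.1 type, an ETS factor of myeloid and B cells.
C1qb (chr4:136886151-136886450, minus strand): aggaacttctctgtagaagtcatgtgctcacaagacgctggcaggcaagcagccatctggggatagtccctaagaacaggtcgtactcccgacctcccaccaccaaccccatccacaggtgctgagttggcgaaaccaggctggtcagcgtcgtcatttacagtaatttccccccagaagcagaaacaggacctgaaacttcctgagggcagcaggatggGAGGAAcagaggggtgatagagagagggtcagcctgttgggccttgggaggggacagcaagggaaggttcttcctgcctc
C1qc (chr4:136892865-136893164, minus strand): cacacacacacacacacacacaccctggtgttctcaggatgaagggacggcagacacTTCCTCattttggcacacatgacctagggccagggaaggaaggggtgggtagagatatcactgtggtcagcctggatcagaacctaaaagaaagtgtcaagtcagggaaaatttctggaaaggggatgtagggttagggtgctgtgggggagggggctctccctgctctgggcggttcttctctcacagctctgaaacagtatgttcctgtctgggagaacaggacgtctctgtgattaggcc
The match stands at position −30 from the start in C1qb and at −193 in C1qc. On either strand, GAGGAA was present for 12 of the 19 members (63.2%) and for 31.3% of the 27025 genes with promoters of this length. A match is a description of letters and not of binding.

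Markers of other cells moved beside C1qa. The 15 measured of 21 acinar markers, which make digestive enzymes, averaged 11.66 to 14.04 on control arrays and 8.31 to 13.67 on mutant arrays, lower in 8 of 8 pairs. On all 16 arrays 0 of these were called without the block and 15 were called lower with it, against 9.71% of all genes. Without the block, an unadjusted p under 0.05 was reached by 13, against 21.4% of all genes. In replicates 4 to 8, 2 were called lower without the block (limma, lowest adjusted p = 0.0205), against 2.46% of all genes. The median difference of the 15 was −2.14 there and −1.56 on all arrays. The 7 measured of 8 duct markers were also lower on average in 8 of 8 pairs (7.80 to 8.61 in controls, 7.34 to 8.22 in mutants). As a measure of RNA quality, the 3′ minus 5′ log2 signal of Gapdh was −0.28 to 0.04 in controls and −0.35 to −0.12 in mutants, lower in 8 of 8 pairs. Their part in the difference of C1qa was not tested. The array with the highest C1qa signal, mutant replicate 8 (11.45), had a median rank of 10 among the 16 arrays over the 31 members.

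MHC class II molecules pair an alpha with a beta chain, and Cd74 is the invariant chain that guards the groove until a peptide is loaded. H2-Aa, the alpha chain, read 10.23, 10.59 and 11.87 (lowest, median, highest) in controls and 10.40, 10.93 and 13.24 in mutants. Mutant replicates 1, 3 and 2 (13.24, 12.54 and 11.58) and control replicate 1 (11.87) were high, and the other 12 arrays lay between 10.23 and 11.06. The difference was 0.63 ± 0.36 (SE; limma, adjusted p = 0.344). H2-Ab1, H2-Eb1 and Cd74 had the same 3 highest arrays, and differed by 0.39 ± 0.30, 0.56 ± 0.40 and 0.54 ± 0.40 (limma, adjusted p = 0.525, 0.475 and 0.496). Without replicates 1 to 3 the 4 differences lay between 0.01 and 0.15. With the block none of the 4 passed, with H2-Aa nearest (limma, adjusted p = 0.0636).

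The promoters of H2-Aa and H2-Eb1 are shown because the class II genes had the same 3 highest arrays. Capitals mark GATTGG (the Y box core, an inverted CCAAT) and TAGCAAC (letters of the X box) or their reverse complements, elements known from class II promoters.
H2-Aa (chr17:34287774-34288073, minus strand): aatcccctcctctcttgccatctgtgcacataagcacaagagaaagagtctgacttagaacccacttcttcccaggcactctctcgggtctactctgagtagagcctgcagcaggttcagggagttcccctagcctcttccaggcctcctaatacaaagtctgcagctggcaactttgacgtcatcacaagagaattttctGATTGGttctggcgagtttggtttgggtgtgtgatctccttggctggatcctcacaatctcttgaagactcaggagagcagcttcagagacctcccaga
H2-Eb1 (chr17:34305617-34305916, plus strand): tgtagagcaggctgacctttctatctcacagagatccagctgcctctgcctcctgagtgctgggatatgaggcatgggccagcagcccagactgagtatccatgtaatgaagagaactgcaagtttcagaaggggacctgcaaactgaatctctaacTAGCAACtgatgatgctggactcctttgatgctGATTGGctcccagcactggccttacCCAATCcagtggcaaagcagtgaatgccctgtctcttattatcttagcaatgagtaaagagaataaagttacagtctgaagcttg
In H2-Eb1 the X box letters stand at position −93 and the Y box core at −60, with a second copy on the opposite strand at −35. In H2-Aa the Y box core stands at −49, and the exact X box letters are not in this window. GATTGG was present for 5 of 19 members and for 18.2% of all genes with a promoter, and TAGCAAC for 2 of 19 (Cd68 and H2-Eb1) and 4.28%.

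T-cell members reached their highest signals on mutant replicate 3. Cd3g, a chain of the T-cell receptor complex, read 4.30, 4.68 and 5.39 (lowest, median, highest) in controls and 4.30, 4.69 and 8.06 in mutants. Mutant replicates 3 and 1 (8.06 and 6.87) stood clear of the other 14 arrays, of which mutant replicate 2 (5.48) was highest. The difference was 0.71 ± 0.44 (SE; limma, adjusted p = 0.397). Cd2, an adhesion molecule of T and NK cells, was also highest there (7.46 and 6.68) and differed by 0.64 ± 0.36 (limma, adjusted p = 0.325). Cd3e, another chain of the same complex, spanned only 6.71 to 7.17 over the 16 arrays, although its highest array was again mutant replicate 3. Without replicates 1 to 3 the 3 differences lay between −0.02 and 0.02.

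Ms4a1, a B-cell surface protein, had the widest range of the members. It read 4.33, 5.29 and 10.44 (lowest, median, highest) in controls and 4.43, 6.06 and 12.45 in mutants. Mutant replicates 1, 3 and 2 (12.45, 9.52 and 8.96) and control replicate 1 (10.44) were high, and no other array exceeded 6.31. Its difference of 1.25 ± 1.12 (SE; limma, adjusted p = 0.590) was the largest of the members and well within the spread between animals. Cd79b, the beta signalling chain of the B-cell receptor, was highest on mutant replicates 1 and 3, followed by control replicate 1 (9.91, 8.71 and 8.05) and differed by 0.72 ± 0.63 (limma, adjusted p = 0.580). On mutant replicate 1 the B-cell members exceeded their same-numbered control by 0.53 (Cd79a), 1.87 (Cd79b) and 2.01 (Ms4a1), although that control was itself the highest of its group.

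Cd79a, the alpha signalling chain that pairs with Cd79b, behaved differently on the arrays with low B-cell signal. Over all arrays it read 5.95, 6.02 and 6.96 (lowest, median, highest) in controls and 5.33, 5.67 and 7.49 in mutants, and was not called (−0.14 ± 0.26; limma, adjusted p = 0.815). In replicates 4 to 8 it read 5.96 to 6.16 in controls and 5.33 to 5.76 in mutants, and the groups did not overlap, as was the case for 6.52% of all genes (3.57% in that direction). There it was lower by −0.50 ± 0.08 (SE, n = 5 per group; limma, adjusted p = 0.00581), in 5 of 5 pairs, and was the only member of the 31 called, against 4.55% of all genes (2.09% higher and 2.46% lower). The call held with the block (limma, adjusted p = 0.00912, where 10.8% of all genes were called) and when each of the 10 arrays was left out (limma, adjusted p up to 0.0186). Cd79b and Ms4a1 differed by −0.06 ± 0.23 and −0.08 ± 0.48 there. The Cd79a signal lay below the lowest array median, it rests on 1 probe set, acinar markers were lower in all 5 of these pairs (their part was not tested), and the choice of arrays was made with their immune signal known. The Cd79a promoter is shown because this member alone was called in that comparison, with GAGGAA on the opposite strand at position −140 in capitals.
Cd79a (chr7:24897247-24897546, plus strand): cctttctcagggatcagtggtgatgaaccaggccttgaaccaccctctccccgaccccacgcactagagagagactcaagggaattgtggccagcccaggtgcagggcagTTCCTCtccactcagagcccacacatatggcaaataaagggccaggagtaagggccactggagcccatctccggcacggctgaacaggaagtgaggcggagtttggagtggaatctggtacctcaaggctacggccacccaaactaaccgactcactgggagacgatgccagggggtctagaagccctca

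Same-numbered arrays were compared because deviations from the group means were shared within the 8 replicate numbers. In pairs 1, 2 and 3 the mutant array was the higher for 28, 30 and 31 of the 31 members, with median differences of 1.12, 0.80 and 1.51. In pair 4 it was higher for 28 by a median of 0.31. In pairs 5, 6, 7 and 8 it was higher for 9, 1, 14 and 10 members, with medians of −0.07, −0.35, −0.07 and −0.10. Pair 6 ran opposite to pair 3: every member but C1qa was lower in the mutant there, Lyz1 by −1.57. The share of all genes higher in the mutant was 42.5% to 54.4% in the 8 pairs. C1qa was the member with the largest difference in pairs 5, 6 and 8 (0.77, 0.61 and 0.88).

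**Figure D3:**
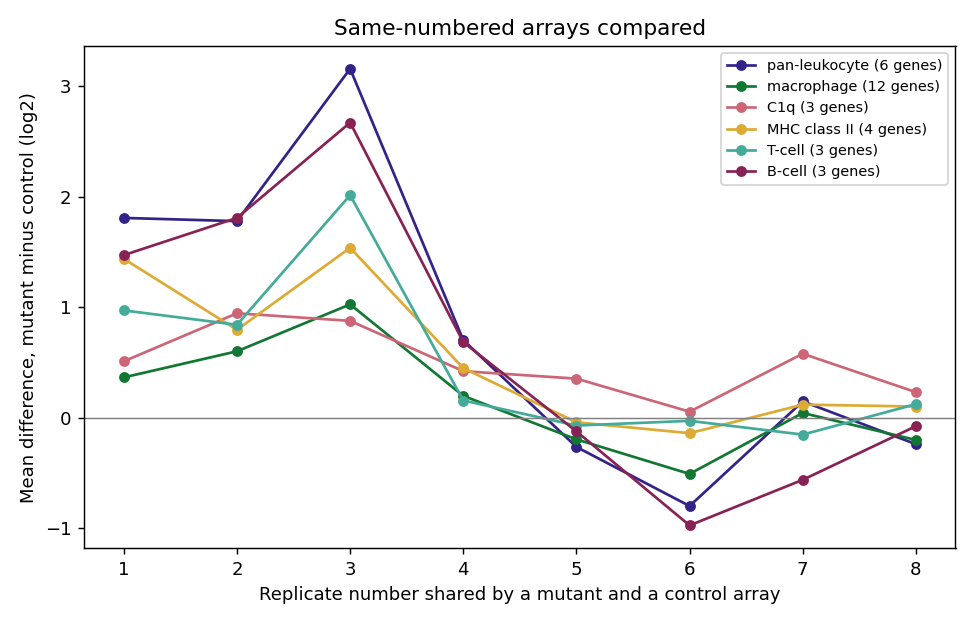
Mean mutant minus control difference in log2 signal (vertical axis) for the members of each role, in the 8 pairs of arrays that share a replicate number (horizontal axis). The pan-leukocyte, T-cell, B-cell and MHC class II lines peak or stay high in pairs 1 to 3 and lie near or below 0 from pair 5, while the C1q line, a mean of 3 genes, stays above 0 in all 8 pairs. In pairs 6 and 8 C1qa alone of the 3 was higher in the mutant.

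Leaving out replicates 1 to 3 of both groups took the median difference of the members from 0.39 to −0.02. There 14 members lay above 0 and 17 below, against 49.1% of all genes above 0, and 14 members had the opposite sign to the fit on all arrays. Of the 31, 4 had an unadjusted p under 0.05 (C1qa, Lyz1, Lyz2 and Cd79a). The share of all genes with such a p was not counted in this fit, so this count shows no excess. The 95% interval of the difference was −0.78 to 0.58 for Ptprc and −0.63 to 0.67 for Coro1a with 5 arrays per group, so differences of up to those bounds are not excluded.

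**Figure D4:**
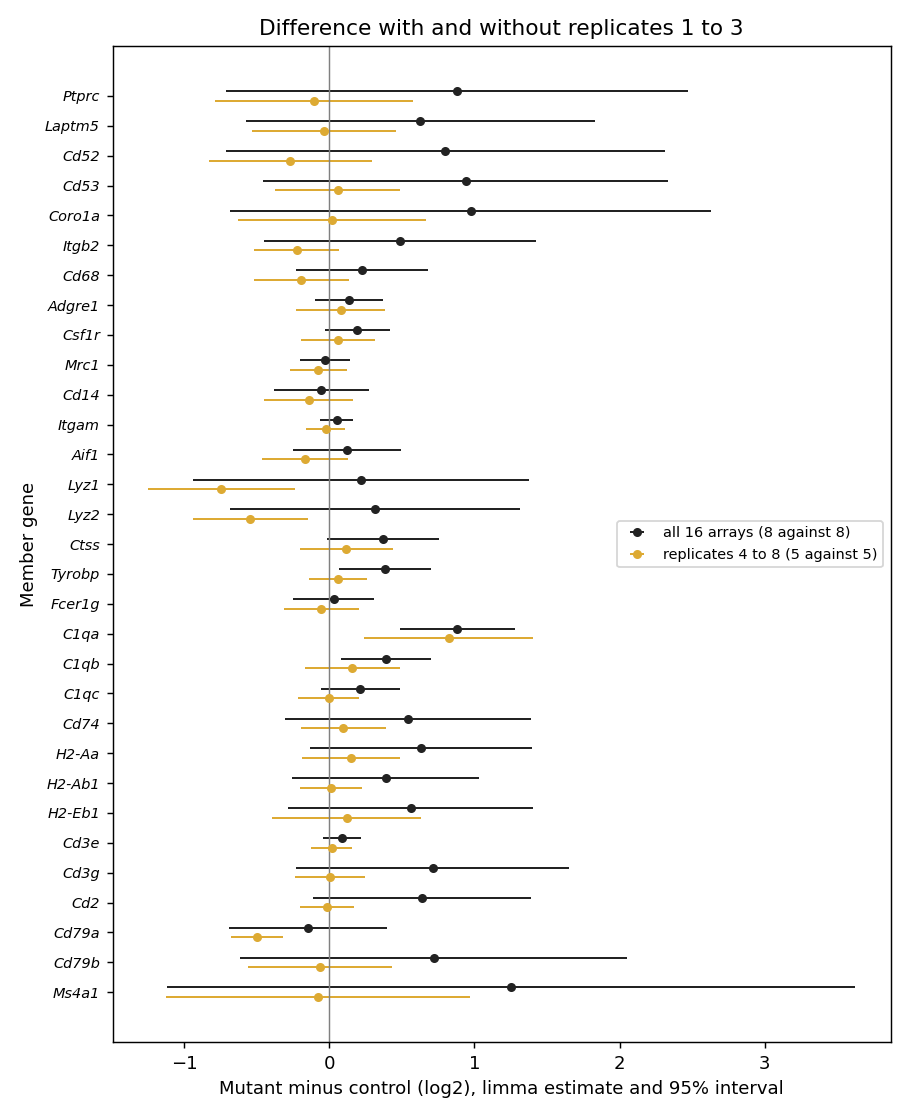
Mutant minus control difference (log2, horizontal axis) of each member (vertical axis), as limma estimate and 95% interval, for all 16 arrays in black and for replicates 4 to 8 of both groups in yellow. C1qa lies to the right of 0 in both fits, Cd79a, Lyz1 and Lyz2 lie to the left of 0 in replicates 4 to 8, and the yellow intervals of the other 27 members include 0.

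Other probe sets of the members gave no further call. The 31 genes had 51 probe sets, and 10 genes had more than 1. The probe sets used for Laptm5, C1qb and H2-Aa are marked as open to cross-hybridisation, as that of Lyz1 is. Their signals may not come from these genes alone. Tested over all 34945 probe sets, the C1qa probe set was the 1 called (limma, adjusted p = 0.00728 over probe sets), against 6.86% of all. Second probe sets of the variable genes did not all share the spread of the one used. The second Ms4a1 probe set read 4.06 ± 1.76 (SD) in controls and 5.51 ± 2.74 in mutants, and the second Coro1a probe set 6.48 ± 1.19 and 7.32 ± 1.99. For Laptm5 the next brightest read 7.39 ± 0.10 and 7.51 ± 0.20, where the one used read 7.29 ± 0.87 and 7.92 ± 1.56.

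Further genes of the same cells were examined from lists written for this purpose. Of 25 measured of 26 other macrophage genes, 0 were called and 1 had an unadjusted p under 0.05 (7 with the block, against 29.7% of all genes). The 1 was Alox5ap, which activates leukotriene synthesis, at −0.24 ± 0.10 (SE; limma, adjusted p = 0.137, and 0.0384 with the block). Of 12 measured other B-cell genes and 20 measured other T-cell and NK-cell genes, 0 were called, and none had an unadjusted p under 0.05; with the block 7 of the B-cell genes and 1 of the T-cell and NK-cell genes did, and 1 B-cell gene (Cd22) was called higher. Ighm, the IgM heavy chain, had the lowest p of the B-cell list and differed by 1.45 ± 0.82 (SE; limma, adjusted p = 0.341). The mean of the B-cell list had the same 3 highest arrays as that of the B-cell members (mutant replicates 1 and 3, control replicate 1).

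In the class II pathway, 1 of 6 measured partner genes was called, as higher, against 4.1% of all genes called higher. Lgmn, a lysosomal protease that cuts antigens and the invariant chain, rose from 8.04 ± 0.29 (SD, n = 8) to 8.49 ± 0.23, a difference of 0.45 ± 0.12 (SE; limma, adjusted p = 0.0260), in 8 of 8 pairs, as did 5.79% of all genes. Its call was lost without control replicate 2 (limma, adjusted p = 0.0501) and without replicates 1 to 3 (0.29; limma, adjusted p = 0.122). Of 14 measured growth factors, chemokines and cytokines of myeloid cells, 1 was called, as higher, against 4.1% of all genes called higher. Cx3cl1 (fractalkine), the ligand of the macrophage receptor Cx3cr1, rose from 7.39 ± 0.22 to 7.97 ± 0.24, by 0.58 ± 0.11 (limma, adjusted p = 0.00282) and in 8 of 8 pairs. It was also called without replicates 1 to 3 (0.59; limma, adjusted p = 0.00619).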

How the data were processed

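Per the labels' protocols, 150 ng of Trizol-extracted total islet RNA per animal went into labelling by in vitro transcription from the 3′ end. Each array has 1 deposited log2 signal per probe set. How the authors corrected background, summarised and normalised is not given in the sources used here. A log base of 2 was inferred from the range (2.74 to 15.39). Of 45101 probe sets, 34945 named 1 gene in the platform annotation, with symbols brought up to date by gene identifier (RefSeq). The brightest probe set stood for each of 18193 genes, with no filter and no detection calls.

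The fit used lmFit and eBayes with a mean-variance trend (limma 3.58.1, R 4.3.3), two-sided, with genotype as the only term. On simulated data this fit called 84 of 100 genes changed 1.5-fold and 100 of 100 changed 3-fold. Of its 192 calls, 4.17% were genes without a change. The block fits were not tested in this way. How often a change is called in genes as variable as the members was not tested. The median SD within groups was 0.67 over the members and 0.16 over all genes. Deviations from the group means correlated within all 8 replicate numbers (0.237 to 0.735), against a median of −0.10 between other numbers. Of the 16 arrays, 13 correlated best with the array of their own number in the other group, and the rest with another number. On this basis the numbers were taken to pair the arrays, while the labels state litter matching but no pairs. Alternatives were the replicate block, array weights, eBayes without the trend, the mean of a gene's probe sets, a filter on dim genes, centring each array on its median, quantile normalisation, leaving out replicates 1 to 3 with and without the block, and leaving out each array. Combinations of these within replicates 4 to 8, and the paired test of C1q chains, were added after seeing the data. All 31 members are named, and from other lists up to 3 called genes or the gene with the lowest p. No gene is named from the acinar, granulocyte and mast-cell, red-cell, fat-cell, and other T-cell and NK-cell lists. Of these lists 0 genes were called without the block on all 16 arrays. Cd22 was named after its value was seen. The members and lists were chosen with earlier results of these data known. No columns were identical, and array correlations were 0.971 to 0.993.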

Additional observations from a re-analysis of the deposited data

Results flagged for a closer look

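A value was set apart when its gap to the nearest array of its group exceeded 0.526 of the group's range. This was tested in 62 groups of 8 arrays (31 members in controls and in mutants). Chance alone sets apart about 1 in 20 groups when groups are independent and values normal. Many members shared their high arrays, so these groups are not independent. Their count therefore cannot show an excess over chance. In 14 groups 1 array stood apart, always on the high side, and 12 of these were control replicate 1.

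On control replicate 1 the white-cell genes Ptprc (10.63, next highest control 8.38), Laptm5 (9.21, next 7.46), Cd52 (10.40, next 8.22), Cd53 (9.41, next 7.07), Coro1a (9.80, next 7.01) and Itgb2 (6.94, next 6.19) stood apart from the other 7 controls. So did Lyz1 (11.31, next 10.27), the class II genes Cd74 (10.16, next 8.69) and H2-Ab1 (10.31, next 9.39), and the B-cell genes Cd79a (6.96, next 6.16), Cd79b (8.05, next 6.35) and Ms4a1 (10.44, next 6.31). Acinar markers averaged 13.95 on that array, second of the 16. Their part in these values was not tested.

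Cd3e stood apart on control replicate 3 (6.92, next 6.83). C1qc stood apart on mutant replicate 3 (8.01, next 7.37).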

How the results depend on the processing

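Of 767 member differences under the 25 alternatives, 763 kept their side of the threshold. No called difference changed sign; differences that crossed 0 without being called in either fit were not taken as reversed. The exceptions were C1qa without replicates 1 to 3 (0.82, adjusted p = 0.114), Cd79a there without and with the replicate block (−0.50 in both) and C1qb without mutant replicate 6 (0.47, adjusted p = 0.0451). Without replicates 1 to 3, 0 members were called higher, 1 lower, and 828 genes in all; with the replicate block as well, 1 higher and 1 lower. With the replicate block on all arrays 3200 genes were called, against 1594 without it, and no member's call changed. When each array was left out, 1 to 2 members were called higher, 0 lower and 1324 to 1645 genes in all, and the median member difference was 0.20 (without mutant replicate 1) to 0.47. Among the 12 settings added within replicates 4 to 8, 370 of 372 differences kept their side; the exceptions were Lyz1 without mutant replicate 4 (−0.91) and C1qa without mutant replicate 5 (1.01). Signals near background limit 8 members. The cause of these changes was not tested.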

Other observations

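Markers of other blood cells showed little signal on any array. Of 11 measured granulocyte and mast-cell markers 0 were called, 0 had an unadjusted p under 0.05 (limma) and all 11 averaged below the lowest array median; their mean was 4.85 to 5.18 on control arrays and 4.87 to 5.30 on mutant arrays. The 4 measured red-cell markers averaged 5.11 to 5.29 and 5.07 to 5.23. On mutant replicates 1 and 3, which had high white-cell signal, the granulocyte mean was 5.00 and 4.94 and the red-cell mean 5.11 and 5.20.

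Stroma markers moved in both directions. Of 9 measured, Dcn (decorin) rose by 1.29 ± 0.29 (SE; limma, adjusted p = 0.00814) and the collagen gene Col1a2 by 0.60 ± 0.15 (limma, adjusted p = 0.0145), while Acta2, the actin of smooth muscle and pericytes, fell by 0.98 (limma, adjusted p = 0.0105). These 3 were also called without replicates 1 to 3 (limma, adjusted p = 0.0276, 0.0198 and 0.0283). Over all genes, 8.76% were called on all arrays and 4.55% without replicates 1 to 3. Of 8 endothelial markers 0 were called, and Pecam1 had the lowest p (0.18 ± 0.07; limma, adjusted p = 0.126). The duct keratin gene Krt19 fell by 0.95 (limma, adjusted p = 0.0113), a call lost without replicates 1 to 3 (−1.08, limma, adjusted p = 0.0600). There 1 other of the 7 measured duct markers was called lower (limma, adjusted p = 0.0398), against 2.46% of all genes.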
